A study of Mus musculus with 4 samples.

Results

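Chromatin accessibility of 9 genes of insulin signaling and glucose uptake was measured by single-nucleus ATAC-seq, which marks open DNA in each nucleus through insertions of the Tn5 transposase, in inguinal white adipose tissue (iWAT) of the mouse. The genes were chosen by name, *Insr*, *Irs1*, *Irs2*, *Pik3r1*, *Akt2*, *Foxo1*, *Tbc1d4*, *Slc2a4* and *Slc2a1*, from 17173 protein-coding genes with a peak. All mm10 peaks on the transcribed body of a gene, or within 2000 bases before its start, were assigned to it, which gave the 9 genes 199 of 189598 peaks. The deposited matrix holds 0 or 1 for each peak in each of 32552 nuclei, and a count here is a nucleus with reads in a peak. Counts were added up per mouse and per cluster of the deposited annotation.

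All mice were male C57BL/6 aged 8 weeks, with no transgene or deletion. The untreated group, day0RT, stayed at room temperature (22 °C). The groups day1C, day3C and day7C were kept in the cold (6.5 °C by the labels) for 1, 3 or 7 days. The groups day1CL, day3CL and day7CL received CL-316,243 (CL), an agonist of the β3-adrenergic receptor, at 1 mg/kg for 1, 3 or 7 days. Each of the 7 groups has 3 mice. The names of the 12 clusters are those of the deposited annotation. The study asked how chromatin changes as cold or CL makes white fat form thermogenic beige adipocytes.

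Insulin binds its receptor, a tyrosine kinase that phosphorylates the insulin receptor substrates, and these recruit phosphoinositide 3-kinase, which activates the kinase AKT. In fat, AKT2 phosphorylates TBC1D4 and so lets vesicles with the glucose transporter GLUT4 reach the cell surface, and it keeps the transcription factor FOXO1 out of the nucleus. Thermogenic fat is known for taking up large amounts of glucose, both with insulin and under adrenergic drive.

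The sequences below belong to some of the regions with a single-peak result, chosen for their low adjusted p-values or for lying at a gene start. RefSeq promoter windows on GRCm38.p6 matched 7 of the 9 genes. For *Irs2* and *Akt2* the 250 bases before the RefSeq start are shown, since the peak at the RefSeq start of *Irs2* varied with treatment and the peak over the *Akt2* start was more open in beige than in white adipocytes. The *Irs2* window is chr8:11008930-11009179 on the minus strand, and the *Akt2* window is chr7:27591302-27591551 on the plus strand. The central 200 bases of 3 intron peaks are shown on the plus strand because their counts differed between adipocyte clusters or between treatments, and these are chr13:101722219-101722418 and chr13:101761688-101761887 in *Pik3r1* and chr7:27624971-27625170 in *Akt2*. Capitals mark matches on either strand to CRE (TGACGTCA), the ERR element (TCAAGGTCA), FOXO (TGTTTAC), C/EBP (TTGCGCAA), the E-box (CACGTG), EBF (CCCNNGGG), the GC box (GGGCGG) or the nuclear receptor half-site (AGGTCA, which also lies within the ERR element).
*Irs2* promoter: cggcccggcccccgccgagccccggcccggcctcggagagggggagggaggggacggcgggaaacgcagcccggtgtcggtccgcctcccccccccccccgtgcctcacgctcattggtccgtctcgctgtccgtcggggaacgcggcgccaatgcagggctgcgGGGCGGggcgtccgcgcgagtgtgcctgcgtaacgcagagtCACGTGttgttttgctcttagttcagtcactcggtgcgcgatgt
*Akt2* promoter: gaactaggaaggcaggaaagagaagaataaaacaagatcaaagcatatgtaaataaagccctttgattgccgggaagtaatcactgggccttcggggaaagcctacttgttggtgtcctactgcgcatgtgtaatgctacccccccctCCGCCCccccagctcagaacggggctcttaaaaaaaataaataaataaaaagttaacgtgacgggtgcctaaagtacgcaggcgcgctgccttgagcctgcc
*Pik3r1* intron peak, lower in beige: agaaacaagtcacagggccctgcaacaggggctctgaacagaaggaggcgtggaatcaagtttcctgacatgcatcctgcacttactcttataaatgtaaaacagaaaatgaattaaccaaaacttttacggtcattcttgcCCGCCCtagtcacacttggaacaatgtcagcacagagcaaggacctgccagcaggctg
*Pik3r1* intron peak, treatment: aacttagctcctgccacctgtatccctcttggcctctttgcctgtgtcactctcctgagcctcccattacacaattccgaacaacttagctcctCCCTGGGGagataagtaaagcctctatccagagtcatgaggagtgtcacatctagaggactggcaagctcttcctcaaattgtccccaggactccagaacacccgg
*Akt2* intron peak, treatment: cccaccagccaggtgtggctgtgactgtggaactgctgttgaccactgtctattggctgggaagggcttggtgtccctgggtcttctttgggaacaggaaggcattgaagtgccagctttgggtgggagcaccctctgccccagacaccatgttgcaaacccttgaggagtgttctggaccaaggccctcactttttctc

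The *Irs2* window is 72.8% G and C with 34 CpG sites, and it holds 1 GC box and 1 E-box. Of 32851 RefSeq windows of this length, 32.7% hold the GC box and 6.02% the E-box. The *Akt2* window is 48.8% G and C with 10 CpG sites and holds 1 GC box. Among the central 200 bases of all 189598 peaks, 8.15% hold the GC box found in the *Pik3r1* peak that was lower in beige adipocytes, and 8.08% hold the EBF motif found in the other *Pik3r1* peak. The *Akt2* intron sequence holds none of these letters.

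A mouse gave 1111 to 2021 nuclei and 1340376 to 6916698 counts. Adipocytes, white and beige together, numbered 29 to 933 per mouse, and 2 day1CL mice had only 29 and 68 of them. Barcodes repeated between mice for 8739 nuclei, in 18 pairs of mice, none of the same day and none with a day0RT mouse. Of the cluster names, the adipocyte label fitted its markers: the summed level of 5 adipocyte markers was 1618 CPM (counts scaled to library totals of 1e6 on genes) in white and 1603 CPM in beige adipocytes. The next cluster, VEC (vascular endothelial cells), had 571 CPM, and the lowest, B cells, had 196 CPM. The 5 beige markers summed to 856 CPM in beige adipocytes against 401 CPM in white ones. The cluster annotated VSMC (vascular smooth muscle cells, 252 nuclei in the 10 mice used) went against its label, since 6 skeletal muscle genes summed to 1484 CPM there (1138 to 1894 over mice) and to 75 to 250 CPM elsewhere, while its 5 smooth muscle genes reached 154 CPM and ranked 5 of 12 clusters. It is called the cluster annotated VSMC below. The cluster annotated APC2, for adipocyte progenitor cells, had 322 CPM of 5 progenitor markers against 653 CPM in APC1, and its smooth muscle sum of 499 CPM was the highest of the 12 clusters.

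Levels across clusters are given as the mean CPM over mice with its SD, for sums over at least 10 nuclei, and carry no test because the clusters were made from the same matrix. *Insr* (chr8:3122061-3279617, minus strand, 34 peaks), the insulin receptor, was most open in white adipocytes (389 ± 58.0 CPM, n = 21 mice) and beige adipocytes (349 ± 65.3 CPM, n = 19), and least open in T cells (144 ± 42.4 CPM, n = 20). Every neighboring pair in that order of 12 clusters lay within the spread, so the 2.70-fold range was a gradient with no step.

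The receptor substrates were distributed in different ways. *Irs1* (chr1:82233101-82291416, minus strand, 17 peaks, 1 of them shared with *Gm9747*) had 251 ± 44.9 CPM in white and 245 ± 69.9 CPM in beige adipocytes. The step beyond the spread fell between APC2, a cluster annotated as adipocyte progenitor cells (178 ± 65 CPM, n = 19), and B cells (89.9 ± 16.9 CPM, n = 21). *Irs2* (chr8:10984681-11008458, minus strand, 6 peaks) was highest in the cluster annotated VSMC (171 ± 61.6 CPM, n = 10) and in B cells (156 ± 37.7 CPM), followed by white adipocytes (134 ± 26.4 CPM), and no neighboring pair differed beyond the spread.

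*Pik3r1* (chr13:101680563-101768217, minus strand, 38 peaks) encodes the p85α regulatory subunit of phosphoinositide 3-kinase. It was highest in white adipocytes at 596 ± 121 CPM. The next cluster, CD8 T cells, had 470 ± 53.6 CPM (n = 20), a step just beyond the larger SD. The ranges over mice overlapped, at 436 to 835 CPM and 373 to 587 CPM. These means pool untreated and treated mice, and adipocyte values by group are given below. Beige adipocytes had 461 ± 113 CPM, close to the T cell clusters, and B cells were lowest at 262 ± 29.9 CPM. Of its 38 peaks, 14 were most open in white adipocytes.

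*Akt2* (chr7:27591552-27640826, plus strand, 15 peaks), the AKT isoform known for insulin action in fat and muscle, was high in 3 clusters and low in 9. Beige adipocytes had 360 ± 82.2 CPM, white adipocytes 329 ± 60.5 CPM and the cluster annotated VSMC 323 ± 101 CPM. The fourth cluster, macrophages, had 163 CPM (n = 21), a step beyond the spread. *Foxo1* (chr3:52268336-52353221, plus strand, 30 peaks), the transcription factor that insulin keeps inactive, was open in 8 clusters at 254 to 311 CPM. The other 4 clusters, dendritic cells, APC1, macrophages and APC2, had 140 to 176 CPM, and the step between the 2 sets was beyond the spread.

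*Tbc1d4* (chr14:101442360-101609191, minus strand, 47 peaks), also called AS160, encodes the Rab GTPase-activating protein that holds back GLUT4 vesicles until AKT phosphorylates it. Its range over clusters was 19.6-fold, the widest of the 9 genes. Dendritic cells were highest at 612 ± 130 CPM (n = 17), beyond the spread of beige adipocytes at 425 ± 70.5 CPM and white adipocytes at 384 ± 57.5 CPM. B cells were lowest at 31.2 ± 17.5 CPM. The peaks divided between the cell types, with 12 of the 47 most open in beige adipocytes, 11 in dendritic cells and 7 in white adipocytes.

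The glucose transporters had largely opposite orders. *Slc2a4* (chr11:69942539-69948188, minus strand, 3 peaks) encodes GLUT4, the insulin-responsive transporter of fat and muscle. It had 198 ± 94.7 CPM in the cluster annotated VSMC, 107 ± 30.7 CPM in beige adipocytes and 98.0 ± 26.1 CPM in white ones, while the other 9 clusters had 12 to 23.8 CPM. *Slc2a1* (chr4:119108711-119137983, plus strand, 9 peaks) encodes GLUT1, the transporter of basal glucose uptake. It was highest in B cells at 213 ± 21.3 CPM, beyond the spread of CD8 T cells at 172 ± 27.3 CPM, and had only 58.2 ± 30.9 CPM in beige adipocytes, 52.1 ± 15.6 CPM in white adipocytes and 35.1 ± 34.2 CPM in the cluster annotated VSMC. Of its 9 peaks, 5 were most open in B cells. Over the 12 cluster means, which share libraries and depth, log2 levels of the 2 transporters had a Pearson r of −0.79, and those of *Akt2* and *Slc2a4* an r of 0.84.

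**Figure D1:**
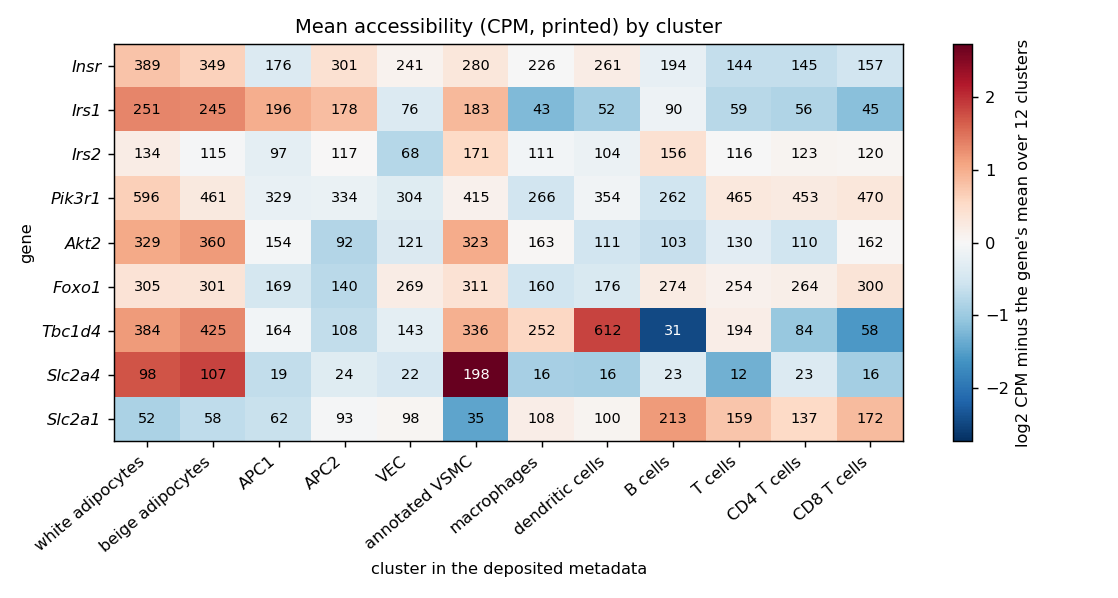
Mean accessibility of the 9 genes (rows) in the 12 annotated clusters (columns). Numbers are CPM averaged over mice, and color is the log2 level relative to the gene's own mean over clusters (red higher, blue lower). *Slc2a4* is high in both adipocyte clusters and the cluster annotated VSMC, *Slc2a1* is low in these 3, and *Tbc1d4* is highest in dendritic cells at 612 CPM.

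The choice of peaks, with CPM scaled to the total of the peaks chosen, and the choice of nuclei changed some of these orders. With only peaks within 2000 bases of the start, the cluster with the highest level stayed the same for 6 of 9 genes and became APC1 for *Irs1*, B cells for *Irs2* and beige adipocytes for *Tbc1d4*. In nuclei with at least 2000 counts it became beige adipocytes for *Irs1*, B cells for *Irs2* and CD8 T cells for *Foxo1*, and stayed the same for the other genes. The peak over the start held 70.3% of all counts of *Slc2a4*, 59.8% of *Irs2* and 47.5% of *Slc2a1*, but only 15.0% of *Tbc1d4* and 18.5% of *Pik3r1*. The single peak at the start, unlike the sum of peaks near it, was most open in VEC for *Insr*, in the cluster annotated VSMC for *Pik3r1*, in CD8 T cells for *Akt2* and in CD4 T cells for *Foxo1*. Among 14059 genes compared over the 12 cluster means, the closest by Pearson r were *Adora1* for *Insr* (0.94), *Hist1h4h* for *Irs2* (0.92), *Dnaja1* for *Pik3r1* (0.92), *Rims4* for *Akt2* (0.97), *Actr6* for *Foxo1* (0.88), *C2cd3* for *Tbc1d4* (0.93), *Lrtm1* for *Slc2a4* (0.98) and *Gm28048* for *Slc2a1* (0.98).

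Beige and white adipocyte nuclei of the same animal were compared in the 19 mice with at least 10 nuclei of each. The regulatory subunit gene *Pik3r1* was lower and the GLUT4 vesicle regulator *Tbc1d4* was higher in beige nuclei. Values here are CPM on TMM-normalized libraries of the genes tested, and the test is edgeR's quasi-likelihood test with the mouse as a block and Benjamini-Hochberg adjustment over 10700 genes. In this comparison 30.5% of all genes tested were called at an adjusted p under 0.05, and 2 of the 9 members were, a share (22.2%) near that background. The authors defined both clusters on this matrix, so the p-values describe that separation.

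*Pik3r1* in white nuclei ran from 469 CPM through a median of 632 to 916, and in beige nuclei from 307 through 470 to 669. It was lower in beige nuclei in 17 of 19 mice, though the ranges overlapped. The log2 fold change over these mice was −0.41 ± 0.06 (SE, adjusted p = 3.37e-08). As a ratio, the gap was wider in each cold mouse than in any day0RT or CL mouse. Beige and white nuclei had 440 and 469, 527 and 564, and 470 and 547 CPM in day0RT mice. In day3C mice they had 345 and 636, 465 and 847, and 507 and 916 CPM. Both exceptions, at 669 and 632 and at 661 and 588 CPM, were day3CL mice. Whether the gap depends on treatment was not tested. *Tbc1d4* ran from 310 through 411 to 498 CPM in white nuclei and from 261 through 487 to 590 CPM in beige nuclei. It was higher in beige nuclei in 15 of 19 mice, with overlapping ranges and a log2 fold change of 0.17 ± 0.05 (SE, adjusted p = 0.0103). The *Tbc1d4* call was lost without the day7C mice (adjusted p = 0.0682) or the day3CL mice (adjusted p = 0.0559), and with no filter on low counts (0.14, adjusted p = 0.0638).

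The other 7 members did not pass the threshold between the adipocyte clusters. *Insr* had a log2 fold change of −0.14 (95% interval −0.26 to −0.02, adjusted p = 0.0621), which passed without the day1C mice (−0.18, adjusted p = 0.0285) or the day3C mice (−0.19, 0.0266), with no filter on low counts (−0.17, 0.0289) and in nuclei with at least 2000 counts (−0.18, 0.0166), and *Akt2* one of 0.11 (−0.00 to 0.23, adjusted p = 0.140). For *Slc2a4* the interval was −0.11 to 0.23 and for *Slc2a1* −0.15 to 0.28 on the log2 scale. *Irs1*, *Irs2* and *Foxo1* had log2 fold changes of −0.08, −0.10 and 0.01.

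**Figure D2:**
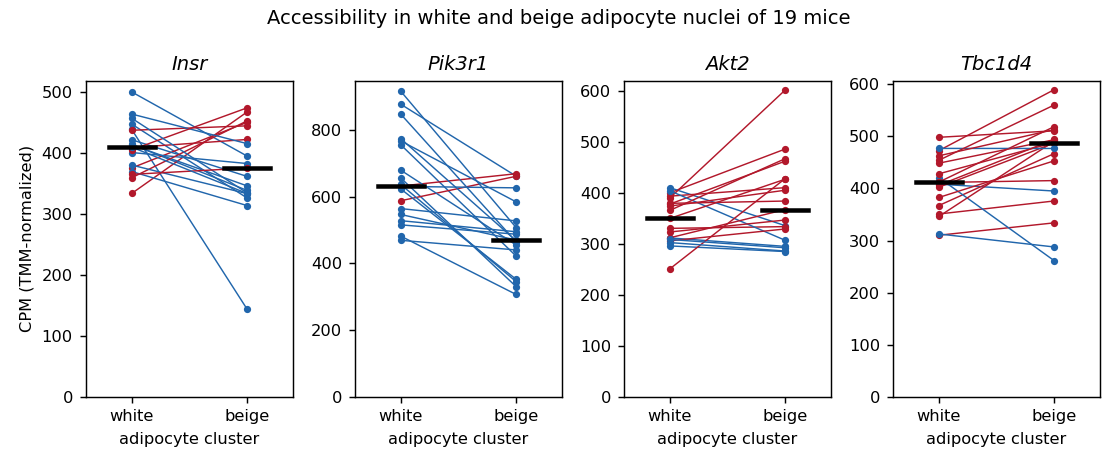
TMM-normalized CPM of 4 genes in white and beige adipocyte nuclei, 1 line per mouse (19 mice; red where beige is higher, blue where white is higher; black bars are medians). *Pik3r1* falls from white to beige in 17 mice and *Tbc1d4* rises in 15.

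Single peaks were tested in the same way. Of the 199 member peaks, 24 had enough counts to be tested between beige and white nuclei and 4 were called (16.7%), a share near the 16.0% of all 11161 peaks tested. The 4 lay in *Pik3r1* and in *Akt2*, which did not pass as a gene, and none of the 4 tested *Tbc1d4* peaks was called. Peak values are CPM on the counts of the peaks tested. The *Pik3r1* peak chr13:101721857-101722779, in an intron 45899 bases downstream of the gene start and shown above by its central bases, had a median of 89.2 CPM in white and 48.6 CPM in beige nuclei (ranges 15.6 to 145 and 0 to 182). It was lower in beige nuclei in 17 of 19 mice (log2 fold change −0.65 ± 0.14, adjusted p = 1.86e-04). Its neighbor chr13:101719179-101720043, in the same gene's introns, was lower in 14 of 19 mice (−0.46 ± 0.15, adjusted p = 0.0187), a call lost without the day3C mice (adjusted p = 0.159) or the day7C mice (0.168). The peak over the *Pik3r1* start changed little (−0.09 ± 0.09, adjusted p = 0.607).

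*Akt2* held peaks that moved in opposite directions. The peak over its start, chr7:27590928-27592859, which covers the promoter window shown above and is 40.0% untranslated and 27.7% intron sequence of *Akt2* transcripts, had a median of 131 CPM in white and 163 CPM in beige nuclei. It was higher in beige nuclei in 15 of 19 mice (log2 fold change 0.33 ± 0.09, adjusted p = 0.0110), and the call was lost without the day3C mice (adjusted p = 0.0907). The intron peak chr7:27628012-27628589 was lower in beige nuclei in 16 of 19 mice, with medians of 76.7 and 54.4 CPM (−0.42 ± 0.15, adjusted p = 0.0319), and that call was lost without the day3C mice (adjusted p = 0.109) or the day1CL mice (0.0525). With start peaks alone, *Akt2* was called as a gene (log2 fold change 0.41), and *Pik3r1* (−0.11, adjusted p = 0.514) and *Tbc1d4* (0.14, adjusted p = 0.460) were not.

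Each treated group was then compared with day0RT in adipocytes, white and beige nuclei summed per mouse, in 1 fit over 21 mice and 14408 genes. The 6 comparisons share the 3 day0RT mice, so a low or high day0RT mouse moves all of them. Among the members, the substrate genes *Irs1* and *Irs2* and the kinase gene *Akt2* were less open, and *Tbc1d4* and *Pik3r1* more open, in those treated groups where a test passed. Of all genes tested, 0.340% were called in day1C, 1.67% in day3C, 5.08% in day7C, 2.58% in day1CL, 4.77% in day3CL and 7.72% in day7CL. Of the 9 members, 0, 1, 1, 1, 3 and 3 were called in the same order.

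Some measured features of the adipocyte sums also moved with the groups. The share of peak counts within 2000 bases of a gene start was 28.4 to 31.3% in day0RT, 29.0 to 29.8% in day1C, 26.9 to 28.7% in day3C, 26.7 to 27.6% in day7C, 27.3 to 27.8% in day1CL, 25.4 to 27.7% in day3CL and 24.9 to 26.4% in day7CL. The summed level of 5 B cell markers in adipocytes was 120 to 164 CPM in day0RT, 67.6 to 82.0 CPM in day1CL and 89.9 to 148 CPM in the other groups, against 1309 CPM in B cells, and at most 1 of the 5 was at 0 in a day0RT mouse and 3 in a day1CL mouse. Beige nuclei made up 7.69 to 12.2% of adipocytes in day0RT and 26.1 to 32.5% in day7C, with 14.5 to 23.5% in day7CL. The 5 adipocyte markers summed to 1614 to 1881 CPM in day0RT, and lay below all day0RT mice in day1CL (1353 to 1584 CPM), day3CL (1446 to 1565 CPM) and day7C (1385 to 1568 CPM). The 5 T cell markers summed to 77.6 to 96.3 CPM in day0RT, and lay below all day0RT mice in day7C (52.5 to 70.6 CPM), day3CL (71.2 to 76.7 CPM) and day7CL (71.9 to 76.3 CPM). Values in white nuclei alone are given below beside the calls of the members as genes, except that of *Irs2* in day7CL. They are not given for single peaks or for other genes. The part of the other features in the results was not tested. Fewer cells of a type and less open DNA per cell cannot be told apart in a sum.

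*Irs2* fell most among the members. Its normalized level was 189, 172 and 148 CPM in the day0RT mice, and 132, 100 and 102 CPM in the day3CL mice. All 3 day3CL mice lay below every day0RT mouse. The log2 fold change was −0.65 ± 0.13 (SE, adjusted p = 6.11e-04, edgeR), and the call held under every alternative and with any 1 mouse left out. In day7CL the values were 118, 106 and 136 CPM, again below every day0RT mouse, with a log2 fold change of −0.48 ± 0.13 (adjusted p = 0.0122). That call was lost without day0RT mouse 1 (adjusted p = 0.128) or day7CL mouse 1 (0.0966), and with DESeq2 (0.0672). It was also lost with start peaks alone (−0.37, adjusted p = 0.206). Of the 18 treated mice, 17 lay below all 3 day0RT mice, and the exception was day1C mouse 2 at 192 CPM. In day7C the log2 fold change was −0.36 ± 0.13 (adjusted p = 0.109) and in day1CL −0.53 ± 0.16 (adjusted p = 0.0516), neither past the threshold. The day1CL value passed without day0RT mouse 3 (adjusted p = 0.0370) and without any 1 of the day1C mice, day3CL mouse 1 or day7CL mouse 1 or 3 (0.0398 to 0.0490). It also passed with no filter on low counts (0.0436) and with unshared peaks only (0.0387). In white nuclei alone, *Irs2* still fell by 0.63 in day3CL (adjusted p = 0.00186).

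*Irs1* was 336, 295 and 271 CPM in day0RT mice and 150, 228 and 216 CPM in day1CL mice. The groups did not overlap, and the log2 fold change was −0.47 ± 0.13 (SE, adjusted p = 0.0285). The lowest value belongs to the mouse with 29 adipocyte nuclei. With start peaks alone the log2 fold change was −0.28 and was not called (adjusted p = 0.600). The call was lost when both shallow day1CL mice were left out (−0.46, adjusted p = 0.0801), without day0RT mouse 1 (0.157) or day1CL mouse 3 (0.497), and in white nuclei alone (0.117). All 18 treated mice were below the day0RT mean, but no other group passed, with log2 fold changes from −0.26 in day7CL to −0.15 in day3C. With only peaks that no other gene shares, day7CL did pass (−0.32, adjusted p = 0.0477). *Insr* passed in no group, and its log2 fold changes ran from −0.22 (day7CL, 95% interval −0.42 to −0.01) to −0.01 (day1CL, −0.25 to 0.22).

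*Pik3r1* was 437, 539 and 509 CPM in day0RT mice and 550, 737 and 811 CPM in day3C mice. All 3 cold mice were above every day0RT mouse, with a log2 fold change of 0.48 ± 0.12 (SE, adjusted p = 0.0202). The call was lost without day0RT mouse 1 (adjusted p = 0.145) or 3 (0.0767), and without day3C mouse 2 (0.0767) or 3 (0.155). Nuclei with at least 2000 counts (0.0630), DESeq2 (0.159) and start peaks alone (0.23, adjusted p = 0.682) did not call it either. In the main fit all peaks of the gene were summed, over white and beige nuclei. In white nuclei alone it was 0.57 (adjusted p = 0.00648). Beige nuclei, normalized for the comparison with white nuclei, showed no rise. They had 440, 527 and 470 CPM in day0RT mice and 345, 465 and 507 CPM in day3C mice. Beige nuclei alone were not tested. Day3CL had a log2 fold change of 0.35 (adjusted p = 0.0791, and 0.0325 without day3CL mouse 3), and the values of its mice, 788, 597 and 552 CPM, were also all above day0RT.

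*Akt2* had a narrow spread in day0RT, at 387, 388 and 379 CPM. The day3CL mice had 361, 292 and 275 CPM and the day7CL mice 286, 285 and 356 CPM. All 6 lay below day0RT, with log2 fold changes of −0.36 ± 0.11 (adjusted p = 0.0412) and −0.34 ± 0.11 (adjusted p = 0.0420). Both calls sat near the threshold: leaving out any 1 day0RT mouse ended both, as did leaving out day3CL mouse 2 or 3 for the first (adjusted p up to 0.191) and day7CL mouse 1 or 2 for the second (up to 0.306). DESeq2 (0.139 and 0.157) and white nuclei alone (0.0716 and 0.0827) did not call them either, nor did nuclei with at least 2000 counts (0.0756 and 0.0918), and the second was lost with only its 2 groups in the fit (0.0576). With start peaks alone the log2 fold changes shrank to −0.15 (adjusted p = 0.770) and −0.13 (0.785). Day3C had a similar value (−0.37 ± 0.11, adjusted p = 0.0582) and did not pass. It passed without day3C mouse 3 (0.0298), day3CL mouse 1 (0.0440) or day7CL mouse 3 (0.0452), and with unshared peaks only (0.0376). Day7C (−0.30, adjusted p = 0.101) passed without day7C mouse 1 (0.0498).

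*Tbc1d4* rose in the largest number of groups. It was 294, 298 and 331 CPM in day0RT mice, 469, 399 and 452 CPM in day7C, 406, 455 and 403 CPM in day3CL, and 421, 439 and 373 CPM in day7CL. All 18 treated mice, at 337 to 523 CPM, were above the highest day0RT mouse. The log2 fold change was 0.50 ± 0.11 in day7C (adjusted p = 0.00131), 0.44 ± 0.11 in day3CL (0.00553) and 0.41 ± 0.11 in day7CL (0.00909). The day7C call held with any 1 mouse left out. The day3CL call was lost without day0RT mouse 1 (0.0548) or day3CL mouse 2 (0.0926), and the day7CL call without day0RT mouse 1 (0.0605) or day7CL mouse 1 (0.0811). *Tbc1d4* was also higher in beige than in white nuclei, and in white nuclei alone the 3 values were 0.46, 0.42 and 0.39, all still called. None of the 3 was called with start peaks alone, where the values were 0.32, 0.49 and 0.30. No other group passed in the main fit. Day1CL passed with library totals without TMM factors (0.42, adjusted p = 0.0438) and with only its 2 groups in the fit (0.43, 0.0401).

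The glucose transporter genes passed in no comparison with day0RT. *Slc2a4* had 130, 86.2 and 109 CPM in day0RT mice and 18.7, 62.6 and 85.3 CPM in day1CL mice, which lay below all day0RT mice (log2 fold change −0.48 ± 0.18, 95% interval −0.84 to −0.12, adjusted p = 0.158). The 18.7 and 62.6 CPM belong to the shallow mice with 29 and 68 adipocyte nuclei. The first of these had only 48772 counts on genes, so its value rests on very few counts. The day3CL mice, at 148, 132 and 108 CPM, overlapped day0RT (0.17 ± 0.14). *Slc2a1* had 70.01, 50.3 and 57.5 CPM in day0RT mice, and its log2 fold changes ran from −0.31 ± 0.21 in day1C to 0.16 ± 0.21 in day1CL, where 1 of the shallow mice was at 0.

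**Figure D3:**
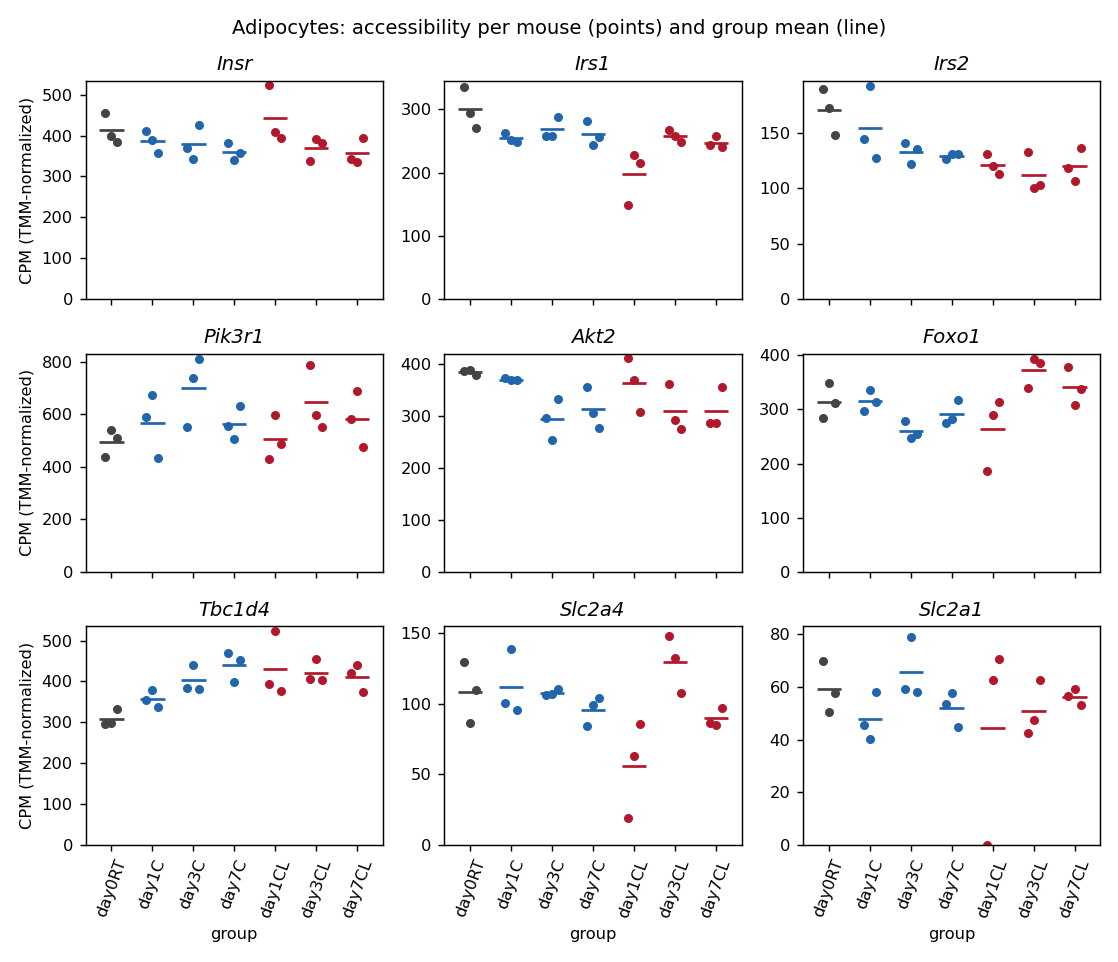
TMM-normalized CPM of each gene in adipocytes of every mouse, by group (gray day0RT, blue cold, red CL; lines are means of 3 mice). *Tbc1d4* is above the day0RT mice in all 18 treated mice, and *Irs2* is below them in 17.

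**Figure D4:**
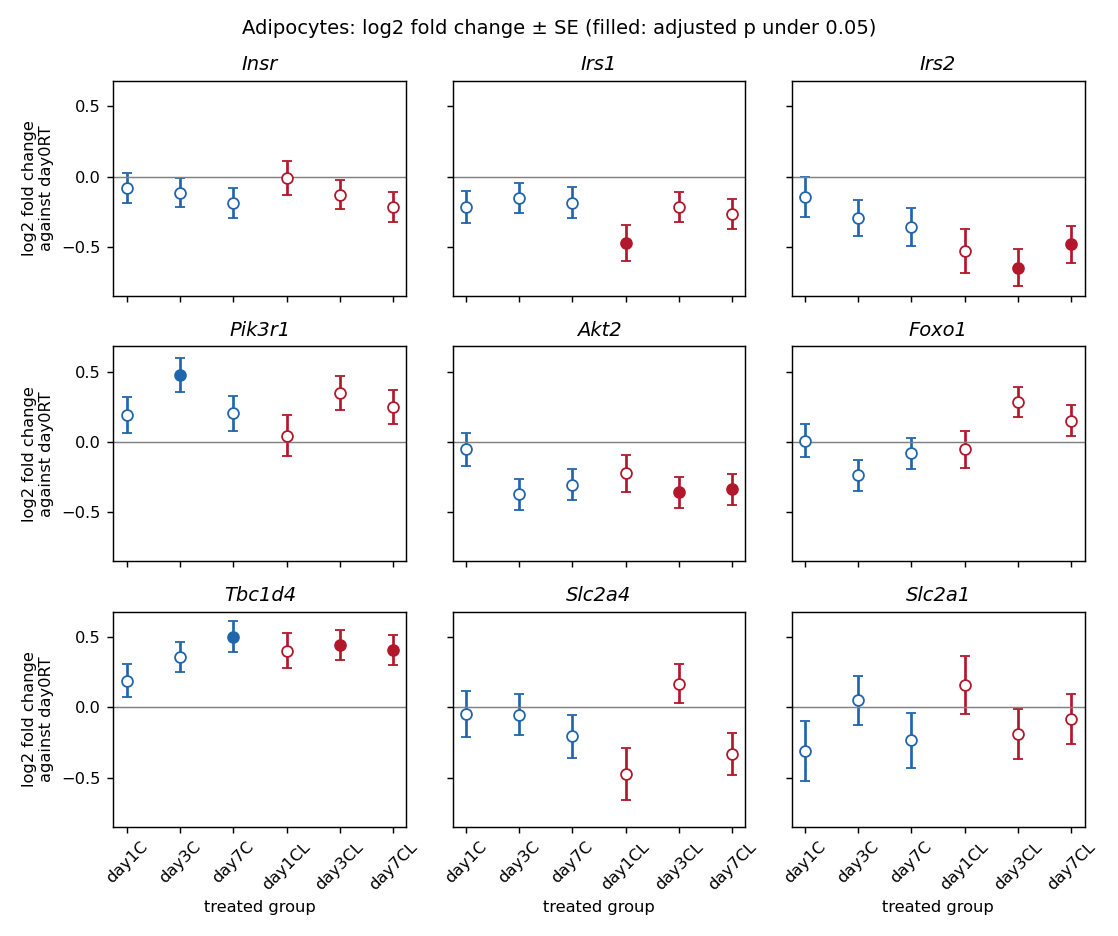
Log2 fold change of each gene against day0RT in adipocytes, with its SE, for cold (blue) and CL (red); filled points passed an adjusted p under 0.05 (edgeR, 3 mice a group). *Irs1*, *Irs2* and *Akt2* have filled points below 0 only in CL groups, and *Tbc1d4* has filled points above 0 in day7C, day3CL and day7CL; the difference between cold and CL is tested separately.

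Cold and CL were compared directly at matched days. At day 1, 0.916% of genes were called and no member was, at day 3 1.46% and 1 member, and at day 7 0.111% and none. The member was *Foxo1*. It had 339, 393 and 386 CPM in day3CL mice and 278, 248 and 254 CPM in day3C mice. The groups did not overlap, with day0RT between them at 284, 349 and 311 CPM, and the log2 fold change of CL against cold was 0.52 ± 0.10 (SE, adjusted p = 4.60e-04). The call held with any 1 mouse left out and in white nuclei alone (0.51), but not with start peaks alone (0.24, adjusted p = 0.509). Neither day 3 group differed from day0RT past the threshold (0.28 ± 0.11 in CL and −0.24 ± 0.11 in cold). At day 7 the *Foxo1* difference was 0.23 (95% interval 0.04 to 0.43, adjusted p = 0.491). For *Irs2* the day 3 difference was −0.36 ± 0.11 (adjusted p = 0.0911), which missed the threshold but passed without day3CL mouse 1 (−0.42, adjusted p = 0.0310) and in nuclei with at least 2000 counts (−0.38, adjusted p = 0.0439). For *Akt2* at day 3 it was 0.01 (95% interval −0.19 to 0.21).

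As a trend over days 0 to 7, no member passed. *Tbc1d4* gained 0.04 ± 0.01 log2 units per day of cold (adjusted p = 0.108, 1.89% of genes called) and 0.04 ± 0.01 per day of CL (adjusted p = 0.0982, 5.39% called). With both shallow day1CL mice left out these passed, at adjusted p = 0.0399 and 0.0459, as they did without day1CL mouse 2 alone (0.0437 and 0.0485). *Irs2* lost 0.05 ± 0.02 per day of CL (a slope of −0.05, adjusted p = 0.0863), and passed without day1CL mouse 3 (0.0439) or day7CL mouse 3 (0.0360). Leaving out day7CL mouse 3 also made the CL trends of *Akt2* (−0.05, adjusted p = 0.0389) and *Tbc1d4* (0.05, 0.0452) pass.

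Single member peaks were tested for any difference between the 6 treated groups and day0RT. Of 107 member peaks with enough counts, 8 were called, against 10.7% of all 47835 peaks tested, so the members' share (7.48%) was under the background. DESeq2 gave an adjusted p for 94 of the 107, among them 6 of the 8, and called none of them, against 294 of 41395 peaks overall. The *Irs2* peak chr8:11008560-11009950, which spans the RefSeq start and holds the window shown above but lies upstream of the GENCODE transcripts by which peaks were assigned, had the lowest adjusted p (6.45e-05). It had 100, 126 and 69.0 CPM in day0RT mice, 59.7, 49.6 and 52.8 CPM in day3CL, 49.9, 52.2 and 74.2 CPM in day7CL, and 44.2, 67.9 and 66.8 CPM in day7C. All day3CL and day7C mice were below every day0RT mouse, and 1 day7CL mouse overlapped. The call held with any 1 mouse left out, and DESeq2 gave an adjusted p of 0.113.

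The *Pik3r1* intron peak chr13:101761612-101761963, 6430 bases downstream of the start, moved the other way. It had 6.85, 15.2 and 13.8 CPM in day0RT mice, 23.9, 30.9 and 24.5 CPM in day3CL and 20.9, 21 and 19.7 CPM in day7C (adjusted p = 9.94e-04). Both treated groups were above every day0RT mouse, and the call held with any 1 mouse left out. The *Akt2* intron peak chr7:27624636-27625505 had 68.5, 57.2 and 58.9 CPM in day0RT mice and 43.0, 41.6 and 38.7 CPM in day3CL mice (adjusted p = 0.00900). It was lost without day3CL mouse 2 (0.0663) or 3 (0.0643). In day1C it stood at 67.3 to 69.3 CPM, within the day0RT range or above it.

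The *Foxo1* peak chr3:52348088-52348544, in the 3′ untranslated sequence 79980 bases downstream of the start, had 9.13, 19.1 and 10.0 CPM in day0RT, 23.9, 16.8 and 21.5 CPM in day3CL and 6.84, 5.03 and 11.0 CPM in day3C. It was called for a difference between any treated group and day0RT (adjusted p = 0.0169), and CL was not tested against cold for single peaks. Its call was lost without day3C mouse 1 (0.122) or day3CL mouse 3 (0.158). The start peak of *Slc2a4*, chr11:69947834-69949279, was called (adjusted p = 0.0158) with its lowest values in day1CL, at 0, 41.8 and 60.8 CPM, and its highest mean in day3CL, at 103, 90.7 and 74.9 CPM. That call was lost without day3CL mouse 2 (0.125) or day7CL mouse 1 (0.0653). The *Slc2a4* values of 0 and 41.8 CPM belong to the 2 shallow day1CL mice. Counts were low for the *Foxo1* peak and for the *Pik3r1* peak 6430 bases downstream of its start. The remaining calls rested on low counts too. A *Slc2a1* intron peak had an adjusted p of 0.0155 (0.463 without day1CL mouse 3, 0.0818 without day1C mouse 1 and 0.0621 without day1C mouse 2). A second *Pik3r1* intron peak (0.0286) was lost without day0RT mouse 3, day1C mouse 3, day3C mouse 2 or 3, or day7C mouse 1. A *Tbc1d4* intron peak (0.0491) was lost without any 1 of 14 mice. None of the 15 tested *Insr* peaks and none of the 13 tested *Irs1* peaks was called.

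**Figure D5:**
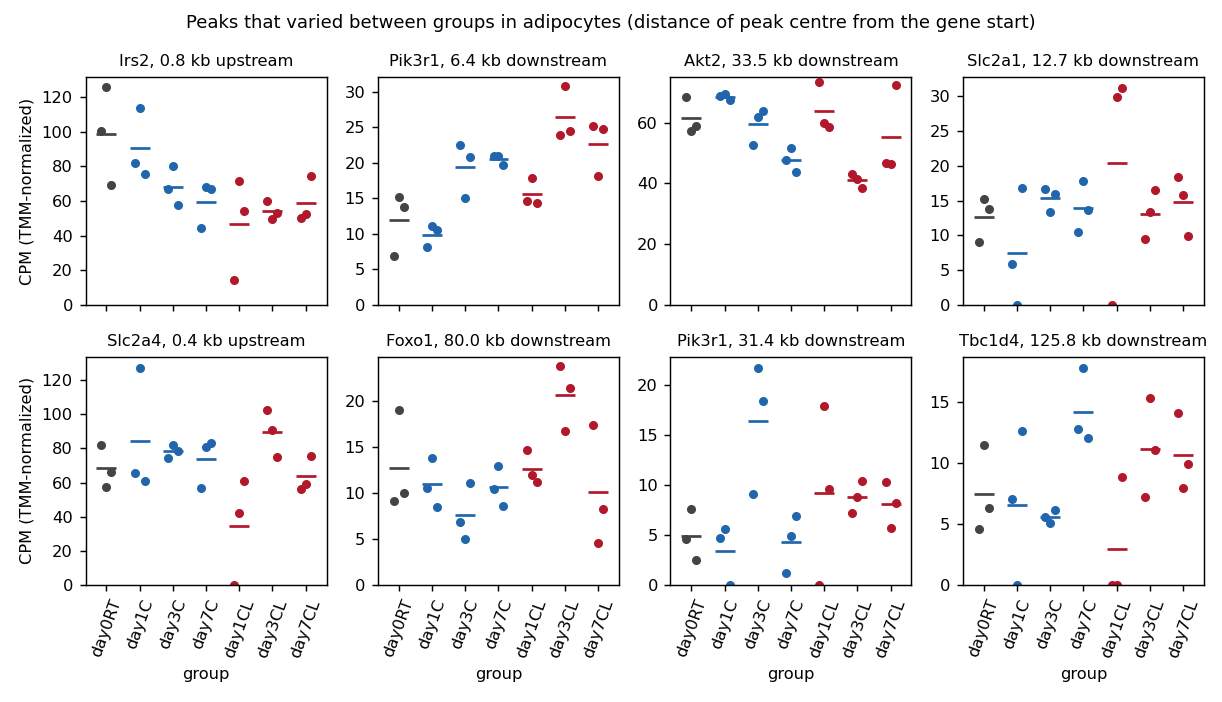
TMM-normalized CPM in adipocytes of the 8 member peaks that varied between groups, by mouse (gray day0RT, blue cold, red CL; lines are means of 3 mice); titles give the gene and the distance of the peak center from the gene start in kb. The *Irs2* peak is lower in all day7C and day3CL mice than in day0RT, and the *Pik3r1* peak 6.4 kb downstream is higher.

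Immune cells were tested for any change from day0RT. In B cells, where 2.17% of 11485 genes were called, 1 of 9 members was, *Tbc1d4* (adjusted p = 0.0242, edgeR). It was near its floor there, with 22.0, 16.9 and 23.5 CPM in day0RT mice and 39.3, 51.0 and 88.6 CPM in day1CL mice, all above day0RT. The 88.6 CPM belongs to day1CL mouse 3, which had the smallest B cell sum, with 66 nuclei and 43646 counts on genes. Its values in B cells therefore rest on few counts. The call was lost without day1CL mouse 2 (0.149) or day3C mouse 1 (0.0545), in nuclei with at least 2000 counts (0.986) and with DESeq2 (0.413). The 2 day1CL mice that were shallow in adipocytes had 644 and 615 B cell nuclei. The fit without both kept only mouse 3 in that group, so its result for B cells is not given. The 5 adipocyte markers summed to 169 to 193 CPM in B cells of day1CL and 167 to 204 CPM in those of day0RT. *Irs2*, more open in B cells than in most clusters, had 192, 198 and 177 CPM in day0RT B cells, and 17 of 18 treated mice lay below all 3, but the test did not pass (adjusted p = 0.15), and the exception was day1CL mouse 3 at 288 CPM. *Irs1* stood in the opposite direction at 56.0 to 82.1 CPM in day0RT and above the day0RT mean in all 18 treated mice (adjusted p = 0.0511), and passed without day3C mouse 1 (0.0244), day0RT mouse 2 (0.0415), day7C mouse 3 (0.0453) or day1C mouse 1 (0.0472).

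No member was called in the other immune cells. In CD4 T cells 0.0521% of genes and none of 8 members tested were called, and in CD8 T cells 0.116% and none of 8. Of 17 treated mice, *Tbc1d4* lay above all day0RT mice in 12 and below all in 0 in CD8 T cells. In CD4 T cells these were 9 and 7. *Irs2* lay below all day0RT mice in 12 and above all in 1 in CD4 T cells, and in 1 and 5 in CD8 T cells. In macrophages edgeR called 0% of 3592 genes (193 at an unadjusted p under 0.05, of which none was a member, and DESeq2 also called 0), with 7 members tested. *Slc2a1* in B cells, its most open cluster, had 227 to 233 CPM in day0RT and 155 to 249 CPM in treated mice (adjusted p = 0.933).

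A list of 71 other genes of insulin signaling and glucose transport gave the surroundings of the 9 members. Between beige and white nuclei 62 were tested and 16 called, 6 higher and 10 lower in beige (25.8%, near the background of 30.5%). The higher ones with the largest changes were *Slc2a9* (log2 fold change 0.54), a urate and glucose transporter, *Hk1* (0.53), a hexokinase, *Phlpp1* (0.50), a phosphatase of AKT, and *Grb14* (0.30), an inhibitor of the insulin receptor, with *Mapkap1* (0.25) and *Txnip* (0.20) behind them. The lower ones were led by *Slc2a13* (−0.87), a myo-inositol transporter, *Grb10* (−0.64), another receptor inhibitor, *Rab8a* (−0.56), a Rab GTPase of vesicle transport, *Slc2a3* (−0.50), encoding GLUT3, *Foxo3* (−0.49) and *Prkci* (−0.32). *Slc2a13* and *Grb10* were lower in beige nuclei in all 19 mice.

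Against day0RT, 70 of the 71 were tested, and 0 passed in day1C, 3 in day3C, 5 in day7C, 3 in day1CL, 7 in day3CL and 7 in day7CL. As shares of the list these were 4.29% in day3C, 7.14% in day7C, 4.29% in day1CL, 10.0% in day3CL and 10.0% in day7CL, beside 1.67%, 5.08%, 2.58%, 4.77% and 7.72% of all genes. *Slc2a9* had 30.9, 46.7 and 30.5 CPM in day0RT mice and 87.5, 77.5 and 56.8 CPM in day7C mice. It rose in day7C (log2 fold change 1.06 ± 0.21) and day7CL (1.07 ± 0.20), and also in day3C (0.83), day1CL (0.86) and day3CL (0.88). *Rab8a*, lower in beige than in white nuclei, rose in day3CL (0.72) and day7CL (0.83), and *Rptor* and *Mapkap1*, subunits of the mTOR complexes, rose in day7C (0.46 and 0.52) and day3CL (0.65 and 0.47), *Rptor* also in day7CL (0.55). Further genes that rose were *Akt1* in day3C (0.62), *Mtor* (0.37) in day3CL, *Foxo6* in day3CL (0.56) and day7CL (0.52), and *Gsk3b* (0.55) and *Slc2a5* (0.53) in day7CL. *Slc2a9* and *Mapkap1* were also higher in beige than in white nuclei, and values in white nuclei alone are not given for the list.

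*Txnip*, which encodes an inhibitor of glucose uptake, was the gene of the list that fell furthest. It had 259, 234 and 188 CPM in day0RT mice, 112, 96.7 and 77.3 CPM in day1CL mice and 155, 114 and 140 CPM in day3CL mice. Both CL groups lay below every day0RT mouse (log2 fold change −1.41 ± 0.19, adjusted p = 1.60e-06, and −0.76 ± 0.14, adjusted p = 2.18e-04). Set directly against cold of the same day it was lower with CL by 1.23 at day 1 (a log2 fold change of −1.23, adjusted p = 4.46e-05) and by 0.69 at day 3 (−0.69, adjusted p = 2.48e-04). *Slc2a3* fell in day7C (−0.49). Direct comparison of the stimuli also gave *Akt1* (−0.46) and *Grb10* (−0.38) lower with CL at day 3 and *Rab8a* (0.62) higher with CL at day 7. These direct comparisons called 1, 3 and 1 of 70 list genes at days 1, 3 and 7. As shares they were 1.43%, 4.29% and 1.43%, beside 0.916%, 1.46% and 0.111% of all genes. The trend over days of cold passed for none of the list, beside 1.89% of all genes. The trend over days of CL passed for 5 of 70 (7.14%), beside 5.39% of all genes. It was higher for *Rab8a*, *Slc2a9*, *Phlpp1* and *Rptor* (0.06 to 0.09 per day) and lower for *Slc2a8* (−0.07 per day). None of the list passed in B cells, CD4 T cells, CD8 T cells or macrophages.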

How the data were processed

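Single-nucleus ATAC-seq of iWAT gave a peak matrix. Per the labels and the methods, the authors aligned reads with Bowtie2 to mm10, called peaks with MACS2 and clustered nuclei with Signac, after removing poorly mapped and duplicate reads, nuclei of low quality and predicted doublets. The deposited counts are binary: 65588856 entries of 1 and 145 stored zeros. Mouse, group and cluster of each nucleus were read from the deposited annotation, because each GEO sample is a lane that holds all treatments. Entries were summed per mouse and cluster over GENCODE vM21 protein-coding genes (body and 2000 bases upstream), keeping sums over at least 10 nuclei. A peak of several genes counted for each. The members, the pathway list and the tests were chosen with earlier results of these data known.

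The test of these sums was the quasi-likelihood test of edgeR 4.0.16 (TMM scaling, filterByExpr with a count minimum of 10, Benjamini-Hochberg over all genes or peaks, called under 0.05) in R 4.3.3. DESeq2 1.42.0 was an alternative, as were library totals, no filter, peaks near starts, unshared peaks, nuclei with at least 2000 counts, at least 30 nuclei per sum, white nuclei alone, a block and each mouse left out. Leaving out both shallow day1CL mice was chosen after seeing the data. The tests were tried on simulated data. Named genes were the 9 members and, of the list, up to 6 called genes in each direction per comparison with at least 20 counts per library on average. Some genes that this rule or the comparison of patterns over clusters would name are not reported here. The p-values of the treatment tests set a difference against the variation between mice, estimated over all groups in the fit. Between beige and white nuclei each mouse's own level is removed, and the difference is set against its variation over mice. Counting limits the precision of small clusters. Sequences were taken from RefSeq windows or the mm10 genome.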

Additional observations from a re-analysis of the deposited data

Results flagged for a closer look

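*Foxo1* in the cluster annotated VSMC reached 676 CPM in 1 of 10 mice, far from the other 9 relative to their range. Sums in this cluster start at 10 nuclei and 11078 counts on genes, so single values there can rest on few counts. Of 9 genes examined there this was the 1 that stood out. The rule flags about 1 in 20 by chance for each gene, so 1 flag among 9 genes is not unusual. In adipocytes, the *Foxo1* effects of CL and cold at day 3 differed by 0.52 on the log2 scale (edgeR, adjusted p = 4.60e-04), a difference that was itself tested.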

How the results depend on the processing

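The number of the 9 members called moved with some choices. Apart from the DESeq2 totals at the end, the share of all genes called under each choice is not given here. The numbers therefore show only how the members' own calls moved. With peaks near starts alone it was 1 between beige and white nuclei, 0 in day3C, day7C, day1CL and day7CL, 1 in day3CL, 0 in day3CL against day3C and 0 in B cells. In nuclei with at least 2000 counts *Insr* was also called between beige and white nuclei, and the number was 0 in day3C and B cells, 2 in day3CL against day3C and 1 for each trend. DESeq2 gave 0 in day3C and B cells and 1 in day7CL. With unshared peaks it was 2 in day3C and in day1CL. Library totals gave 2 in day1CL and B cells. In day1CL it was also 2 with no filter or with only the groups compared, and 0 in white nuclei alone. Without both shallow day1CL mice, a choice made after seeing the data, it was 1 for each trend. That choice left 1 mouse in day1CL. The mice were shallow in adipocytes, and in B cells they had 644 and 615 nuclei. Of member peaks, 65 were called between beige and white nuclei with no filter, where the *Akt2* start peak reversed to −0.023 and the median of all peaks was −0.19. More member peaks than the 24 of the main test entered that test, so the 65 cannot be set against its 4 calls. The share of all peaks called there is not given. For treatment, 3 member peaks were called with no filter. DESeq2 called 0 of the 94 with an adjusted p, and gave none for the called *Slc2a4* and *Tbc1d4* peaks. The cause of these shifts was not tested. Leaving out 1 mouse, or 1 treatment group for beige against white, gave 1 to 3 members between beige and white nuclei (1 to 5 peaks), 0 to 2 in day3C, 1 to 2 in day7C, 0 to 2 in day1CL, 1 to 3 in day3CL, 0 to 3 in day7CL, 1 to 2 in day3CL against day3C, 0 to 1 for the cold trend, 0 to 3 for the CL trend, 0 to 2 in B cells, 5 to 10 peaks for treatment and 0 to 0 in the others. Over all genes, mice of equal number in different groups hardly deviated together (median r = 0.002, −0.12 to 0.12). Mice of unequal number had r of −0.06 to 0.11. Counting noise in sparse sums pulls r toward 0, so this cannot decide whether equal numbers share a batch. The authors state that 3 batches were run independently, without tying them to mouse numbers. A replicate block on mouse numbers ended the *Akt2* call in day3CL (adjusted p = 0.0539, edgeR) and no other member's call. Counts over all genes were lower with DESeq2 (687 against 179 in day3CL, 1113 against 234 in day7CL, and 5115 against 294 for peaks).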
